A study of Gallus gallus with 6 samples.

Results

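The genes examined here copy damaged DNA or modify the clamp that recruits the enzymes that do so. They were 10 genes, the polymerase genes REV1, POLH, POLK, REV3L, POLN and POLQ, the sliding clamp gene PCNA, and the modifier genes RAD18, USP1 and HLTF. Members were all probe sets of the array whose annotation gives 1 of these symbols and no other. There were 21 such probe sets among 38439 tested, for 9 of the 13009 genes with a single symbol. HLTF was not analysed here.

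When a replicative polymerase stalls at a damaged base, RAD18 attaches ubiquitin to PCNA, and the modified clamp recruits translesion polymerases that can insert a base opposite the lesion. USP1 removes the ubiquitin again. B cells also use this pathway to mutate their antibody genes. In DT40 cells, which diversify their immunoglobulin genes in culture, REV1 and the modification of PCNA are known to take part in mutation at the sites that uracil removal leaves behind.

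Gene expression was measured on Affymetrix chicken arrays in DT40, an established B cell line that comes from the bursa of Fabricius of a female chicken. There were 3 samples of the wild-type line and 3 samples of the Pax5-/- genotype, called Pax5-deficient, all grown at 40 °C without a treatment that sets the groups apart. PAX5 is a transcription factor needed for B cell identity, and its gene had been targeted with a neo and a bsr construct. The targeted cells were also electroporated and selected as stable clones, and the labels do not say whether the 3 samples share a clone. Clone and genotype therefore cannot be told apart in this comparison. The samples are described as biological replicates, but no source states that their cultures were separate, so p-values reflect only the spread among these samples.

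Values are log2 expression values made with RMA, 1 per probe set and sample. The background of each array was taken as the 95% point of its 689 probe sets for virus genomes, and lay between 3.78 and 3.93 over the 6 arrays. Whether DT40 cells express any of these virus sequences was not checked. In bulk RNA, fewer cells that express a gene and less of its RNA per cell cannot be told apart. Of the PAX5 probe sets, 1 of 4 fell, with values of 4.55, 4.41 and 4.30 in the wild-type samples and 3.86, 3.55 and 3.34 in the Pax5-deficient ones (limma adjusted p = 0.00483), all of the latter at or under background. The brightest PAX5 probe set read 4.60, 4.49 and 4.65 against 4.81, 4.77 and 4.90, above background in every sample, and its difference of 0.24 ± 0.09 (SE) missed the threshold (limma adjusted p = 0.136), while the 2 dimmest were at background throughout. Their positions relative to the targeted part are unknown here, so they may not bear on the disruption. Of 8 measured B cell markers, 7 were above background in all 6 samples, and the mean over the list was 9.60 to 9.74 in wild-type and 7.76 to 7.93 in Pax5-deficient samples. Of the 8 markers, 6 fell, none rose and 2 missed the threshold. The latter were IKZF1, at 0.44 ± 0.13 (SE; limma adjusted p = 0.0761), and SYK, at 0.29 ± 0.11 (0.154). Both read higher in every Pax5-deficient sample than in any wild-type one. The largest fall of the 8 was that of the B cell transcription factor gene EBF1, which was at background in the Pax5-deficient samples. The T lineage list averaged 3.91 to 4.06 in wild-type and 3.94 to 4.01 in Pax5-deficient samples, with CD4 and CD28 at background in all of them. Of its 6 measured genes, CD8A rose from a mean of 4.50 to 5.02 and CD3E fell from 5.34 to 4.84 (limma adjusted p = 0.0233 and 0.0355). The fibroblast and stromal list averaged 4.21 to 4.35 and 4.38 to 4.49, with DCN and LUM at background, and 1 of its 6 genes passed, COL1A2, which rose from 6.31 to 6.81 (limma adjusted p = 0.0105). For the myeloid list the averages were 5.40 to 5.55 and 5.32 to 5.36, and for the 2 measured erythroid genes 4.65 to 4.88 and 4.86 to 5.22. Of these, 1 of 5 myeloid genes passed, SPI1, which fell from 9.07 to 8.03 (limma adjusted p = 0.000629), and neither erythroid gene did. SPI1 was the brightest myeloid gene and raised that list's averages. The other myeloid genes had wild-type means of 3.48 to 5.46 and log2 differences of -0.03 to 0.17. The part that other cell types may have in the results was not tested.

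REV1, POLH and USP1 were lower in Pax5-deficient cells, while no member was called higher. On the brightest probe set of each gene, 3 of the 9 genes fell, none rose and 6 missed the threshold of an adjusted p of 0.05 (limma, Benjamini-Hochberg over all 38439 probe sets). Over all genes, 15.8% passed in either direction, 9.74% lower and 6.01% higher. Of the 21 member probe sets, 6 fell, none rose and 15 did not pass. Among all probe sets 10.6% passed, 6.70% lower and 3.93% higher. The median difference was -0.11 on the log2 scale over the 9 members and 0.03 over all genes. At an unadjusted p of 0.05, 8 of the 21 probe sets passed, against 22.3% of all probe sets. Quantile normalization of the deposited values, which moves the share of called genes that are lower from 61.8% to 51.8%, left 3 members lower and none higher on their brightest probe sets. Over the 21 probe sets it gave 6 lower and 1 higher, and centring each sample by chromosome gave 5 lower and 2 higher. On the brightest probe sets, that centring gave 3 members lower and 1 higher, PCNA. It uses the median level of a chromosome's genes. On chromosome 22, where PCNA lies, that level shifted by -0.52 while the median of the gene differences was 0.02. Centred instead on the median of the genes' deviations from their own means, 3 members were lower and none higher. Over the 21 probe sets, 6 were then lower and none higher. This second centring was chosen after the data were seen. The count of members called was 2 on the mean of probe sets, without any 1 wild-type sample, and without Pax5-deficient replicate 3.

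**Figure D1:**
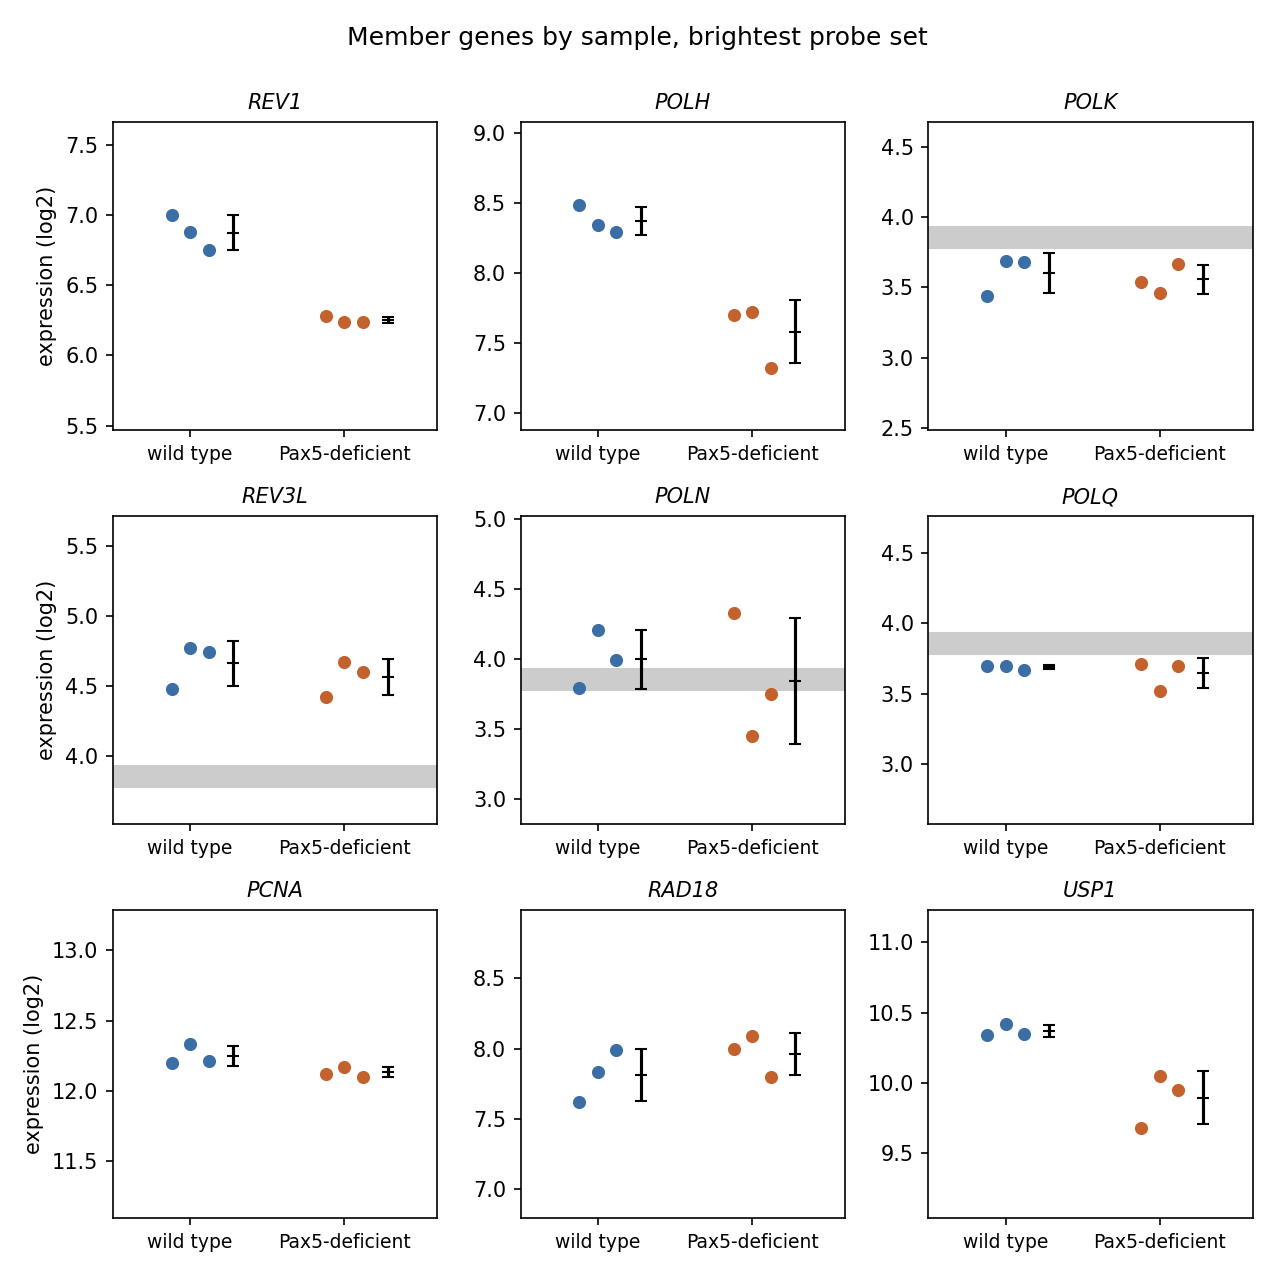
Expression of the 9 measured member genes by sample on their brightest probe sets (y axis, log2, with a span of equal length in each panel; points, samples; black bars, mean ± SD of 3 samples; grey band, range of the background level over the 6 arrays). For REV1, POLH, USP1 and PCNA every Pax5-deficient sample lies under every wild-type sample, for PCNA by a small step that did not pass. Groups were apart in either direction for 35.0% of all genes. POLK and POLQ lie under the grey band in all 6 samples.

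REV1 belongs to the Y family of translesion polymerases. It inserts cytosine opposite damaged guanine or a missing base, and also serves as a scaffold for the other translesion polymerases. On its brightest probe set the wild-type samples read 7.00, 6.88 and 6.75 and the Pax5-deficient samples 6.28, 6.24 and 6.24 on the log2 scale. The groups were separate, and the Pax5-deficient samples lay within a narrow range. The log2 difference was -0.62 ± 0.09 (SE, n = 3 per group), a 1.54-fold lower level (limma adjusted p = 0.00291). The other REV1 probe set read 6.40, 6.81 and 6.49 in wild-type and 6.06, 5.73 and 5.67 in Pax5-deficient samples. It also separated the groups, by -0.75 ± 0.14 or 1.68-fold (limma adjusted p = 0.0101). Both calls were made whichever sample was left out, with adjusted p-values up to 0.0185 for the first and 0.0436 for the second. REV1 lies on chromosome 1, whose 1787 measured genes had a median log2 difference of 0.02.

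POLH encodes polymerase eta, the Y family enzyme that copies past ultraviolet-induced pyrimidine dimers and, in mammals, contributes to mutation at A and T bases of immunoglobulin genes. Its brightest probe set read 8.48, 8.34 and 8.29 in wild-type samples and 7.70, 7.72 and 7.32 in Pax5-deficient samples. The groups did not overlap, and the third Pax5-deficient sample was the lowest. POLH was lower there by 1.73-fold, with a log2 difference of -0.79 ± 0.12 (SE, n = 3 per group; limma adjusted p = 0.00391), and between -0.86 and -0.66 when 1 sample was left out. Its other 3 probe sets were close to background and did not pass. They ranged from 3.40 to 4.32 over the 6 samples, with log2 differences of 0.22 ± 0.12, -0.18 ± 0.18 and -0.11 ± 0.10. The POLH call thus rests on 1 of 4 probe sets. For the mean of all 4 the log2 difference was -0.21 ± 0.09 and missed the threshold (limma adjusted p = 0.169).

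POLK encodes polymerase kappa, the Y family enzyme known for bypass of bulky adducts in the minor groove of DNA. Its single probe set read 3.44, 3.69 and 3.68 in wild-type and 3.54, 3.46 and 3.67 in Pax5-deficient samples. All 6 values were at or under the background of their arrays, so no fold is given for POLK. The gene lies on chromosome Z, as PAX5 does.

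REV3L encodes the catalytic subunit of polymerase zeta, a B family enzyme that extends the mismatched ends other translesion polymerases leave. Its probe set read 4.48, 4.77 and 4.74 in wild-type samples and 4.42, 4.67 and 4.60 in Pax5-deficient samples. These values were above background, and the groups overlapped. The difference was -0.10 on the log2 scale, with a 95% interval of -0.35 to 0.15 (limma adjusted p = 0.681). The lower bound of that interval does not reach the fitted differences of REV1 and POLH. REV3L was dimmer, however, with a wild-type mean of 4.66 against 6.88 and 8.37, and RMA compresses differences of dim probe sets. The REV3L change was not tested against those of REV1 and POLH.

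POLN and POLQ encode the A family polymerases nu and theta. Polymerase theta is known for joining broken ends through short stretches of matching bases, and polymerase nu has been linked to the repair of DNA crosslinks. Both POLQ probe sets were at background in all 6 samples, with values from 3.24 to 3.71. The brightest of 3 POLN probe sets read 3.79, 4.21 and 3.99 in wild-type and 4.33, 3.45 and 3.75 in Pax5-deficient samples, with widely overlapping groups and a 95% interval of the difference from -0.62 to 0.32. A second POLN probe set read 3.74, 3.90 and 4.03 in wild-type samples and 3.67, 3.09 and 2.95 in Pax5-deficient samples. Only wild-type replicates 2 and 3 were above background there. It passed narrowly, with a log2 difference of -0.66 ± 0.18 (SE, n = 3 per group; limma adjusted p = 0.0494). As the Pax5-deficient values were at background, the fold of the means was only bounded, at 1.02 or more. The POLN call disappeared when wild-type replicate 1, 2 or 3 was left out (adjusted p = 0.0793, 0.154 and 0.165), or Pax5-deficient replicate 2 or 3 (0.108 and 0.151), and also with the replicate number as a block (0.0717) and when centred by chromosome (0.0543). The third POLN probe set was at background in all samples.

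**Figure D2:**
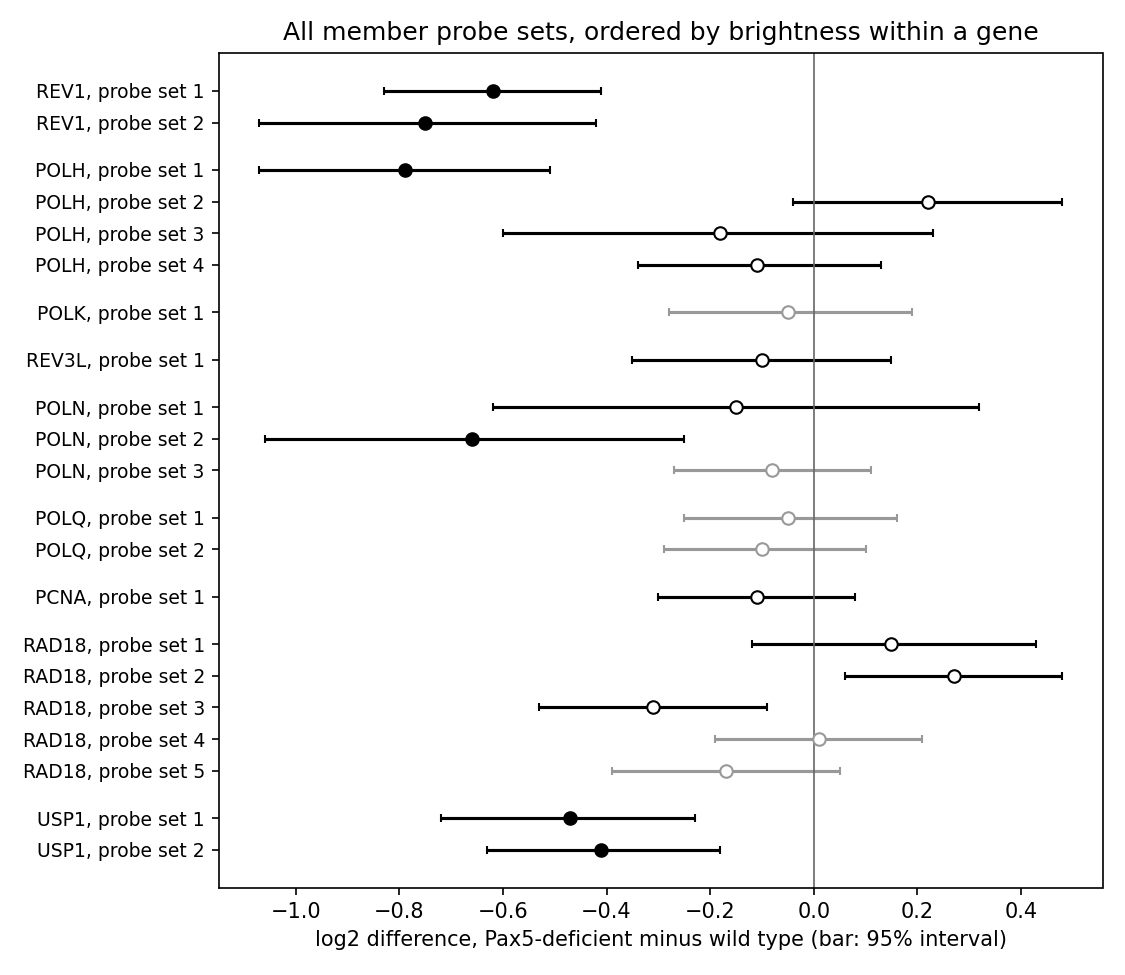
Log2 difference of each of the 21 member probe sets (x axis, Pax5-deficient minus wild type; bars, 95% intervals from limma), ordered by brightness within a gene. Filled points passed an adjusted p of 0.05 and grey points were at background in all 6 samples. Both probe sets of REV1 and of USP1 passed, against 1 of 4 for POLH, 1 of 3 for POLN and 0 of 5 for RAD18.

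PCNA is the ring-shaped clamp that holds polymerases on DNA and that RAD18 and USP1 act upon. Its probe set read 12.20, 12.33 and 12.21 in wild-type samples and 12.12, 12.17 and 12.10 in Pax5-deficient samples. The groups did not overlap, but they were separated by a small step. The log2 difference was -0.11 ± 0.08 (SE, n = 3 per group), with a 95% interval of -0.30 to 0.08 (limma adjusted p = 0.508). Over the member probe sets, 9 of 21 had groups that did not overlap, 8 lower and 1 higher in Pax5-deficient cells, where 27.4% of all probe sets had such groups, 12.9% lower and 14.4% higher. On the brightest probe sets, 4 of 9 members had groups apart, all lower, against 35.0% of all genes in either direction. The sign of the PCNA difference turned when samples were centred on the median level of the genes on their chromosome, to 0.38 ± 0.11 (limma adjusted p = 0.0347). PCNA lies on chromosome 22. The 126 measured genes of that chromosome shifted by -0.52 in median level between the groups, while the median of their differences was 0.02. Centred on the median of gene deviations, the PCNA difference was -0.13 ± 0.09 (limma adjusted p = 0.433).

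RAD18 encodes the ubiquitin ligase that, with its partner enzymes UBE2A and UBE2B, marks PCNA at stalled forks. Its brightest probe set read 7.62, 7.83 and 7.99 in wild-type and 8.00, 8.09 and 7.80 in Pax5-deficient samples, with overlapping groups and a log2 difference of 0.15 ± 0.12 (SE, n = 3 per group; limma adjusted p = 0.537). The next read 7.16, 7.22 and 7.21 against 7.59, 7.46 and 7.35. There every Pax5-deficient sample was above every wild-type sample, but the difference of 0.27 ± 0.09 did not pass (limma adjusted p = 0.112). It passed after quantile normalization (0.37 ± 0.09, limma adjusted p = 0.0371) and when centred by chromosome (0.44 ± 0.11, 0.0174). RAD18 lies on chromosome 12, whose 286 measured genes shifted by -0.16 in median level while the median of their differences was 0.00. Centred instead on the median of gene deviations, that probe set did not pass (0.29 ± 0.09, limma adjusted p = 0.0851). The third read 3.98, 4.11 and 4.16 in wild-type samples and 3.81, 3.65 and 3.86, all at background, in Pax5-deficient samples. Its difference of -0.31 ± 0.10 did not pass either (limma adjusted p = 0.0799), and the fold of the means was bounded at 1.16 or more. In all 6 samples, the 2 dimmest were at background. None of the 5 RAD18 probe sets was called in the deposited scaling.

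USP1 encodes the protease that, together with WDR48, takes ubiquitin off PCNA and off the crosslink repair protein FANCD2. The brighter of its 2 probe sets read 10.34, 10.42 and 10.35 in wild-type samples and 9.68, 10.05 and 9.95 in Pax5-deficient samples. The wild-type samples were close together and all above the others, and the first Pax5-deficient sample was the lowest. USP1 was lower by 1.39-fold, with a log2 difference of -0.47 ± 0.11 (SE, n = 3 per group; limma adjusted p = 0.0242). The second probe set read 9.17, 9.25 and 9.20 against 8.63, 8.93 and 8.84, with the samples of a group in the same order, a difference of -0.41 ± 0.10 and an adjusted p of 0.0318 in limma. The size of the USP1 difference stayed between -0.55 and -0.37 when 1 sample was left out, but its call ended in limma when 1 wild-type sample was omitted (adjusted p = 0.0647 for replicate 1, 0.0998 for replicate 2 and 0.0748 for replicate 3), and equally when Pax5-deficient replicate 3 was (0.0558). On the second probe set the call was lost without any sample except Pax5-deficient replicate 2, with adjusted p-values of 0.0725 to 0.12.

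Genes that work beside the members were examined in 7 lists. In the order given below, 25.0%, 30.8%, 20.0%, 11.8%, 50.0%, 57.1% and 45.0% of their measured genes passed. Over all genes the share was 15.8%, and the shares were not tested against it. In the list of polymerase partners, which holds other polymerases, polymerase subunits and HELQ, 2 of 8 measured genes fell, none rose and 6 did not pass. The list's median was -0.08 on the log2 scale. Without Pax5-deficient replicate 2, 2 genes fell and 1 rose. PRIMPOL, a primase that restarts synthesis past a lesion, read 6.91, 6.99 and 7.52 in wild-type and 5.33, 5.35 and 5.70 in Pax5-deficient samples. It was 3.21-fold lower (log2 difference -1.68 ± 0.17, SE, n = 3 per group; limma adjusted p = 0.000381), and 3.38-fold lower on a second probe set, while another near background did not pass (0.15 ± 0.08). POLL, a repair polymerase that fills gaps during end joining, was 2.37-fold lower (limma adjusted p = 0.00113), from 7.70 ± 0.10 to 6.45 ± 0.33 (SD). The subunits that polymerase zeta shares or binds did not pass, with log2 differences of 0.27 ± 0.25 for MAD2L2, -0.25 ± 0.14 for POLD3 and 0.02 ± 0.09 for POLD2.

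Among genes that load PCNA, unload it or work on it at the fork, 4 of 13 fell, none rose and 9 did not pass, with a median of 0.02. RFC1 and RFC5, subunits of the clamp loader, had log2 differences of -0.90 ± 0.09 and -1.03 ± 0.11 (SE, n = 3 per group; limma adjusted p = 0.000252 and 0.000571), and both other RFC1 probe sets also passed downward, 1 of them not without wild-type replicate 2 (0.0535). Of the remaining loader subunits RFC2, RFC3 and RFC4, none passed, with differences of -0.18 ± 0.10, 0.03 ± 0.10 and 0.19 ± 0.09. ATAD5, which unloads PCNA and is known in human cells to bring USP1 to it, read 7.02, 7.20 and 7.51 in wild-type and 6.43, 6.14 and 6.22 in Pax5-deficient samples. All Pax5-deficient samples were lower, by 1.97-fold (limma adjusted p = 0.00208), and the other ATAD5 probe set had a difference of -0.64 ± 0.19 that did not pass (0.0758). FEN1, the nuclease that trims lagging-strand flaps, was lower by 1.41-fold (limma adjusted p = 0.0119), a call lost without wild-type replicate 2 (0.055).

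In the list of partners of PCNA ubiquitination and deubiquitination, 3 of 20 measured genes fell, 1 rose and 16 did not pass. The median was 0.00, and not every gene listed acts on PCNA itself. A share of 20.0% passed, against 15.8% over all genes. The split of the calls turned with the scaling, to 2 lower and 3 higher after quantile normalization. It was 1 lower and 4 higher when centred by chromosome, and 3 lower and 2 higher when centred on the median of gene deviations. The gene that rose was RFWD3, a ubiquitin ligase acting on the single-stranded DNA binding protein RPA and on stalled forks. It read 5.70, 6.08 and 5.58 in wild-type and 6.66, 6.74 and 6.85 in Pax5-deficient samples, 1.95-fold higher (limma adjusted p = 0.00207). WDR48, the activating partner of USP1, read 7.60, 7.82 and 8.01 against 7.43, 7.40 and 7.26. Its fall of 1.36-fold passed narrowly (limma adjusted p = 0.0449) and ended without wild-type replicate 2 or 3 (0.143 and 0.147), without any Pax5-deficient replicate (0.0676 to 0.141), after quantile normalization (0.0746), when centred by chromosome (0.149), with a variance trend (0.0606) and with the replicate block (0.0742). USP7, another protease reported to act on ubiquitinated PCNA, had a difference of -0.51 ± 0.09 (limma adjusted p = 0.00596) and -0.71 ± 0.14 on a second probe set, a call that needed wild-type replicates 2 and 3 (adjusted p up to 0.0686 without one of them). Others above background had -0.51 ± 0.15 and -0.42 ± 0.12 and did not pass, nor did the mean of all USP7 probe sets (-0.21, limma adjusted p = 0.104). That mean includes probe sets at background in all 6 samples. UFD1L, a cofactor of the segregase VCP, was 1.32-fold lower (limma adjusted p = 0.03), a call lost without any sample except Pax5-deficient replicate 2 (0.0623 to 0.118) and when centred by chromosome (0.346). The RAD18 partner UBE2A, the conjugating enzyme UBE2N and the ligase SHPRH did not pass, with differences of -0.05 ± 0.11, -0.27 ± 0.09 and -0.30 ± 0.17. VCP itself and the list gene SPRTN read higher in every Pax5-deficient sample than in any wild-type one, but missed the threshold. Their differences were 0.39 ± 0.11 and 0.32 ± 0.09 (limma adjusted p = 0.0556 and 0.0627). Centred on the median of gene deviations, WDR48 and UFD1L kept their calls (limma adjusted p = 0.0376 and 0.0358). Over the list, 10 of the 20 differences were below 0. The count of 4 calls in this list was 2 when Pax5-deficient replicate 3, or wild-type replicate 2 or 3, was omitted.

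In the list of single-stranded DNA binding and checkpoint genes, 2 of 17 fell, none rose and 15 did not pass, a share of 11.8% against 15.8% over all genes. ATRIP, the partner of the checkpoint kinase ATR, was 1.82-fold lower (limma adjusted p = 0.00772) and 2.05-fold lower on a second probe set. SLF2, a factor linked to RAD18 and the SMC5 and SMC6 complex in human cells, was 1.27-fold lower (limma adjusted p = 0.0336), a call that was lost whichever of the 6 samples was left out (0.0568 to 0.134), which leaves 1 call in the list. The RPA subunit genes RPA1, RPA2 and RPA3 did not pass, with differences of -0.12 ± 0.11, 0.07 ± 0.09 and -0.28 ± 0.10.

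Among crosslink repair genes, the pathway in which USP1 also acts, 5 of 12 fell, 1 rose and 6 did not pass, with a median of -0.21 on the log2 scale. FANCE, a subunit of the core complex, had the smallest adjusted p, with values of 9.07, 8.99 and 9.10 in wild-type and 7.98, 7.51 and 7.85 in Pax5-deficient samples. It was 2.41-fold lower (limma adjusted p = 0.000332). FANCB of the same complex was 1.88-fold lower, UBE2T, the enzyme that passes ubiquitin to FANCD2, 1.66-fold, and SLX4, a nuclease scaffold, 1.51-fold (limma adjusted p = 0.00092, 0.00215 and 0.00736). A second FANCB probe set did not pass (-0.80 ± 0.28), and SLX4 fell on 2 further probe sets, neither of which passed when Pax5-deficient replicate 2, or wild-type replicate 1 or 2, was omitted, and did not pass on 2 more. FAN1 was the gene that rose, by 0.68 ± 0.17 (limma adjusted p = 0.0327). No gene of the list was called higher when any 1 wild-type sample was left out, or with median centring. The USP1 substrate genes FANCD2 and FANCI did not pass, with differences of 0.25 ± 0.12 and -0.13 ± 0.15.

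Of 14 measured genes of immunoglobulin gene diversification, 6 fell, 2 rose and 6 did not pass, with a median of -0.31. UNG, BRCA2, RAD54L and BRCA1 had the smallest adjusted p-values and all fell. UNG encodes the glycosylase whose product, a missing base, is a lesion that REV1 can copy, and it read 11.42, 11.49 and 11.46 in wild-type and 9.66, 9.82 and 9.54 in Pax5-deficient samples. UNG was 3.44-fold lower, and 3.74-fold lower on a second probe set (limma adjusted p = 1.04e-05 and 6.41e-06). The list's count of 8 calls was 3 without wild-type replicate 2 and 4 without wild-type replicate 3. BRCA1, lower by 1.36-fold (limma adjusted p = 0.0122), was among the calls lost without either (0.0503 and 0.0565). The next BRCA1 probe sets also fell, by -0.41 ± 0.10 and -0.51 ± 0.13 (limma adjusted p = 0.0305 and 0.0421). Each of these calls was lost in 4 of the 6 fits with 1 sample left out. The dimmest BRCA1 probe set was at background in all samples.

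PCNA is also transcribed with the genes of S phase. Of 20 measured S phase replication genes, 9 fell, none rose and 11 did not pass, with a median of -0.40 on the log2 scale. Of the 20 differences, 17 were below 0. After quantile normalization 9 fell and 1 rose, and on the mean of probe sets 8 fell and 1 rose. Between 6 and 10 genes passed, all lower, when 1 sample was left out. E2F1, ORC1, CDC45 and PRIM1 had the smallest adjusted p-values. PRIM1, the catalytic subunit of the primase, read 8.01, 8.12 and 8.12 in wild-type and 7.29, 7.53 and 7.53 in Pax5-deficient samples, 1.55-fold lower (limma adjusted p = 0.00356). The mean over the list was 9.08 to 9.18 in wild-type and 8.70 to 8.85 in Pax5-deficient samples. Its part in the lower values of REV1, POLH and USP1 was not tested.

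**Figure D3:**
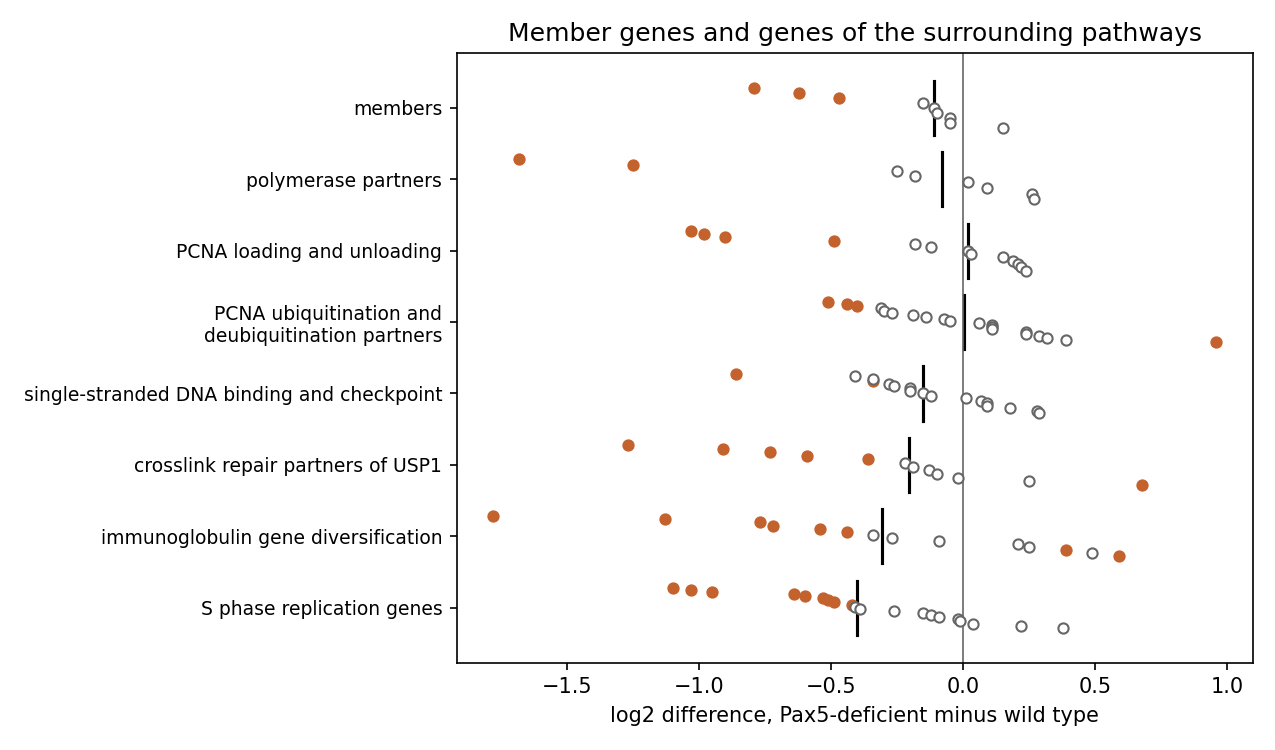
Log2 difference of each measured gene on its brightest probe set (x axis, Pax5-deficient minus wild type) for the 9 members and 7 lists of neighbouring pathways. Filled points passed an adjusted p of 0.05, open points did not, and black lines mark the median of each list, from -0.40 for S phase replication genes to 0.02 for PCNA loading and unloading.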

How the data were processed

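Per the submitters' processing notes, the deposited log2 expression values were made with RMA. Its version and software are not stated there. RMA compresses differences of dim probe sets, so folds near background are understated. The table held 38535 probe sets, and 96 AFFX controls were left out. Names came from the platform annotation, whose Entrez IDs gave chromosomes through the RefSeq table of GRCg7b. The brightest probe set by its mean over the 6 samples stood for each gene. Probe sets were fitted with limma 3.58.1 in R 4.3.3 (lmFit and eBayes on the group, two-sided), with Benjamini-Hochberg adjustment over all 38439. The fit was also run on simulated data with independent noise and changes only in probe sets above the median level. Those data held no clone or culture effect, so they do not bear on such effects, nor on dim probe sets. A fold against a group at background is a bound, taken against each sample's own value or its background, whichever was higher. Such a bound takes no account of the spread among samples. Intervals are limma's. No depth applies to arrays, and their number limits the precision. Named were all members, PAX5, from each list the up to 4 passing genes of smallest adjusted p, and, where a sentence on a list needed values, genes that did not pass. POLD2, MAD2L2, POLD3, RFC2, RFC3, RFC4, UBE2A, UBE2N, SHPRH, RPA1, RPA2, RPA3, FANCD2 and FANCI were chosen for their roles after values were seen, and in some lists exceed the planned 2. VCP and SPRTN were also added after values were seen, as were APEX1, RAD51D and FAN1, which passed upward. Members and lists were chosen with earlier results of these data known. UFD1 and BLNK were matched to UFD1L and SH2D6 by hand. The main fit did not pair samples. Deviations of same-numbered samples correlated by 0.12, 0.07 and -0.01 over probe sets, and those of differently numbered samples by -0.12 to 0.06. Whether the replicate numbers in the titles pair samples cannot be told from these few correlations. Python 3.11.15 with matplotlib 3.10.9 was used for joins and plots.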

Additional observations from a re-analysis of the deposited data

How the results depend on the processing

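The falls of REV1 passed on both probe sets under every alternative run for them, and that of POLH under every one except the mean of its probe sets (-0.21), which includes 3 near background. Of the 248 comparisons of a main result with an alternative, 221 kept direction and side of the threshold, or a count within 1.5 times. Counts were compared by their total, so a list whose split of rises and falls turned still counted as kept. A difference that passed in neither fit also counted as kept if its sign held. The 221 therefore does not measure how firm the calls are. The number of member probe sets called was 6, 5 with the replicate block, 7 after quantile normalization (1 rose, 6 fell) and when centred by chromosome (2 rose, 5 fell), and 3 to 5 when 1 sample was left out, and that of member genes was 3, and 2 to 4 over all alternatives. The USP1 difference was -0.55 to -0.37 without 1 sample. Differences that did not pass turned sign without Pax5-deficient replicate 2 for POLK (0.00, from -0.13 to 0.00 over samples left out), POLN (0.04, from -0.40) and POLQ (0.02, from -0.08), on the mean of probe sets for RAD18 (-0.01), and for PCNA when centred by chromosome (0.38). That centring uses the median level of a chromosome's genes, which on chromosome 22 shifted by -0.52. Centred instead on the median of gene deviations, a choice made after seeing the data, no member changed sign or call. Dim probe sets also turned sign: the third POLH set without Pax5-deficient replicate 2 (0.02, from -0.32), the third POLN set when centred by chromosome (0.03), and the fourth RAD18 set after quantile normalization (-0.03), median centring (-0.02) and without wild-type replicate 2 or 3 (-0.02, with a range of -0.02 to 0.07). Calls among PCNA ubiquitination partners were 4 (1 rose, 3 fell), 5 after quantile normalization (3 rose, 2 fell), when centred by chromosome (4 rose, 1 fell) or on gene deviations (2 rose, 3 fell), 4 with the replicate block (2 rose, 2 fell), and 2 or 3 without 1 sample. Centred by chromosome, 1 gene rose and 2 fell among polymerase partners and among checkpoint genes, the latter also after quantile normalization, and 2 rose and 4 fell among crosslink repair genes, where median centring gave 0 and 5. Those among single-stranded DNA binding and checkpoint genes were 2, and 1 with the eBayes trend, the replicate block or any sample left out. Those in immunoglobulin gene diversification were 8, and 3 to 8 without 1 sample. Those among S phase replication genes were 9, and 6 to 10 without 1 sample. Apart from stated constructions, the cause was not tested. With 3 arrays a group, small differences near background cannot be resolved.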
